A study of Homo sapiens with 6 samples.

Results

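The plasminogen activation system is the set of proteins that turn the inactive precursor plasminogen into plasmin, a serine protease that cuts fibrin and matrix proteins. Its genes were followed in KYSE150, an established line of human oesophageal squamous carcinoma cells. The members were fixed by name as 7 genes, namely the activator genes PLAU and PLAT, the receptor gene PLAUR, the inhibitor gene SERPINE2 and the plasminogen receptor genes ANXA2, S100A10 and PLGRKT. All 7 are among the 60591 genes of the deposited table and among the 21825 genes that passed the filter on low counts and were tested. The TPA group had 3 libraries of KYSE150 cells given TPA, a phorbol ester that activates protein kinase C, at 10 ng/ml for 24 h. The DMSO group had 3 libraries of KYSE150 cells given the solvent DMSO, for which the labels state no separate dose or time. Per the labels, cells were grown to near confluence and kept overnight without serum before TPA. A single cell line was used. Nothing in the labels states whether a library stands for a culture of its own, and each p-value therefore measures no more than how these samples vary, a spread that may be technical.

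Plasmin is made at the cell surface. Urokinase, the product of PLAU, binds its receptor uPAR (PLAUR), a protein held in the membrane by a glycolipid anchor, and cleaves plasminogen that is docked nearby on proteins ending in a lysine. S100A10, which forms a complex with annexin A2 (ANXA2), and the membrane protein encoded by PLGRKT are such docking proteins. The tissue-type activator PLAT is best known for dissolving fibrin clots. SERPINE2 (protease nexin-1) is a serpin that inhibits thrombin, urokinase, tissue-type activator and plasmin. In squamous cells the urokinase system is known for its part in migration and wound repair.

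Short stretches near the transcription start listed by RefSeq are shown because PLAU, PLAUR and ANXA2 are the members that passed the test, and phorbol esters act in part through AP-1, a factor that binds TGANTCA. The windows are from RefSeq on GRCh38.p14, and 250 bases before each start were searched on both strands. The counts given cover 8 windows for 6 of the members, with PLAT left out. The PLAU stretch belongs to the second of its 2 starts. GENCODE 29 has transcripts of these genes that start farther upstream, so the 3 stretches lie within the gene spans given beside the members, and all 250 bases of the PLAUR window lie in annotated PLAUR exons. Capitals mark TGANTCA and the GC box GGGCGG, and the 3 adjoining GC boxes of the ANXA2 stretch share a base with each other where they meet. Stretches are given 5′ to 3′ on the strand of the gene.
PLAU, chr10:73911061-73911090, plus strand: gagccGGGCGGgagagggagGGGCGGcgcc
PLAUR, chr19:43670338-43670367, minus strand: atcacaactccaTGAGTCAgggccgagcca
ANXA2, chr15:60398044-60398236, minus strand: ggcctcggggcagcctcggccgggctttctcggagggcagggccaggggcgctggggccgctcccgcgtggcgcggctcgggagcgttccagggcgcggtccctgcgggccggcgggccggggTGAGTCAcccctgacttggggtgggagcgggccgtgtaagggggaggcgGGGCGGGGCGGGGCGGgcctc
TGANTCA was in 2 of the 8 windows, those of PLAUR (186 to 180 bases before the start) and ANXA2 (127 to 121 bases before), and 6.57% of 35116 windows of the same length over all genes hold it. GGGCGG was in 5 of the 8 windows, against 42.6% of all windows. The kappa B motif was in 0 of the 8 windows, against 9.96% of all windows. Neither window of PLAU held TGANTCA. A match is a description of letters, and elements farther from the start were not searched. Whether any match bears on the response to TPA was not tested.

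Library totals ran from 27702329 to 33965547 counts, and a gene with 0 counts could still be at 0.0915 to 0.109 CPM, depending on the library (CPM is a count divided by the TMM-scaled library total and multiplied by 1000000). TPA 1 stood apart from the other TPA libraries. Across genes, log2 CPM of TPA 1 correlated at r = 0.974 with DMSO 1, but at 0.927 with TPA 2 and 0.936 with TPA 3, while TPA 2 with TPA 3 reached 0.992 and DMSO 2 with DMSO 3 reached 0.993. DMSO 1 was nearest its own group, at 0.978 with DMSO 2 and 0.977 with DMSO 3. Genes are not independent replicates, so these values carry no p. Of 9 squamous epithelial markers 9 averaged at least 1 CPM, with a summed level of 3730 to 5930 CPM in TPA libraries and 2130 to 3600 CPM in DMSO libraries. Of 7 fibroblast markers 1 reached that average (sums of 3.05 to 10.5 CPM in TPA and 5.43 to 12.2 CPM in DMSO; DCN had 0 counts), of 5 endothelial markers 1 (1.09 to 2.29 CPM in TPA and 2.20 to 3.00 CPM in DMSO; KDR had 0 counts), of 6 leukocyte markers 2 (4.35 to 10.2 CPM in TPA and 5.10 to 5.96 CPM in DMSO) and of 4 monocyte and macrophage markers 1 (10.4 to 10.9 CPM in TPA and 7.53 to 17.5 CPM in DMSO). In edgeR 1 of the squamous markers passed the test, and of the other 4 lists 0 genes did.

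TPA and DMSO libraries were compared to ask which transcripts of the system differ after TPA. The urokinase gene, its receptor gene and the annexin A2 gene rose 3.77- to 5.86-fold in mean CPM, the inhibitor gene SERPINE2 and the receptor gene PLGRKT were higher in all TPA libraries without passing the test over all genes, and PLAT and S100A10 overlapped between the groups. In numbers, 3 of 7 members rose, 0 fell and 4 did not pass when edgeR's test was adjusted by Benjamini-Hochberg over all genes with a threshold of 0.05, where 0.861% of all genes tested rose and 0.394% fell. Over all genes 188 rose and 86 fell, but 126 rose and 219 fell when libraries were scaled by size alone, with the same 3 members called. The median log2 fold change of the members was 1.68 beside -0.11 for all genes tested. In 5 of the 7 members no TPA library overlapped a DMSO library, all 5 higher in TPA, while 14.3% of all genes tested were higher with no overlap. Bulk RNA cannot tell fewer cells that express a gene from less RNA per cell.

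**Figure D1:**
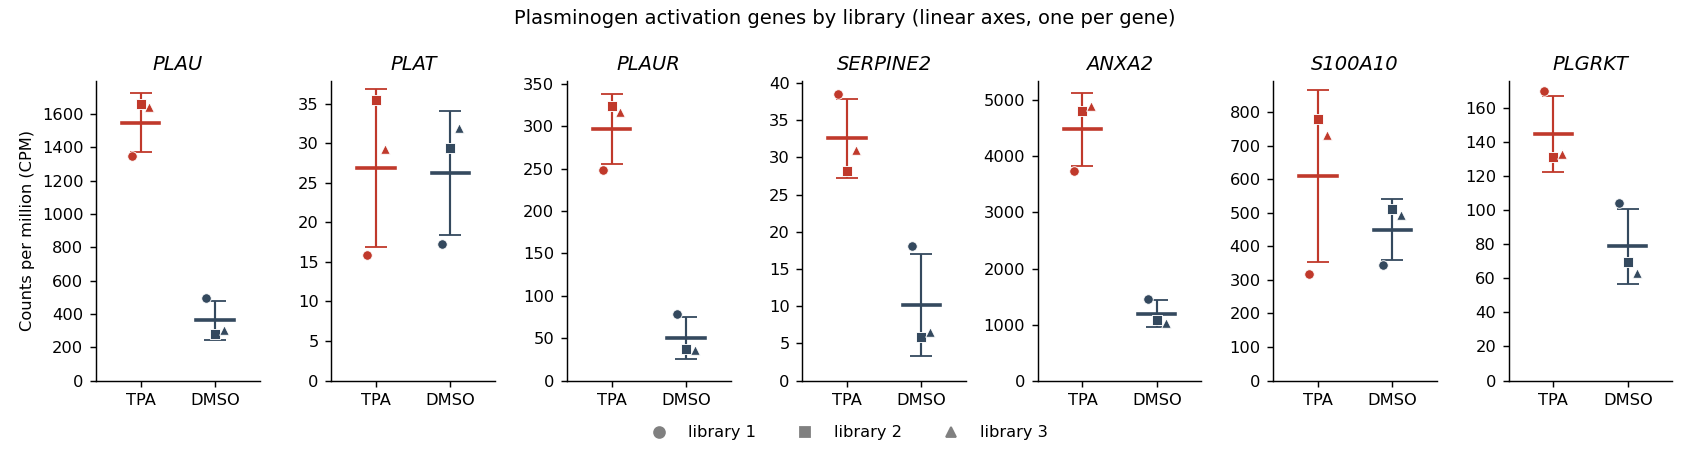
CPM of the 7 members in each library, TPA left and DMSO right, on linear axes that start at 0 and differ between genes. Points are libraries 1, 2 and 3, horizontal lines are means and bars are SD (n = 3). TPA and DMSO points are apart for PLAU, PLAUR, SERPINE2, ANXA2 and PLGRKT and overlap for PLAT and S100A10.

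Among the activators, PLAU (chromosome 10, 73909177 to 73917497, plus strand, GRCh38) rose. It had 1346, 1657 and 1641 CPM in TPA libraries 1, 2 and 3, against 498, 283 and 303 CPM in DMSO libraries 1, 2 and 3. The lowest TPA library was above the highest DMSO library. The means were 1548 ± 175 CPM in TPA and 361 ± 119 CPM in DMSO (SD, n = 3 each), and the log2 fold change was 2.1 ± 0.27 (SE; edgeR adjusted p = 0.0279). By rank of CPM within a library, PLAU was gene number 44, 45 and 45 in TPA 1, 2 and 3, against 187, 467 and 395 in DMSO 1, 2 and 3. The call depended on which library was left out. It held without TPA 1 (2.3, adjusted p = 0.000516) and without DMSO 1 (2.41, 0.0285), but not without any other library in edgeR. Without TPA 2 the edgeR log2 fold change was 2.06 (adjusted p = 0.0876), without TPA 3 it was 2.07 (0.111), without DMSO 2 it was 1.96 (0.234) and without DMSO 3 it was 2.0 (0.254). Of the exon sequence of PLAU, 31.1% lies opposite exons of C10orf55, and since the strand setting of the counting is not given in the sources used here, reads of the pair cannot be told apart. C10orf55 held 348, 427 and 466 counts in TPA 1, 2 and 3 and 240, 261 and 220 in DMSO 1, 2 and 3, which is 0.866% to 0.937% of the PLAU count in TPA and 1.59% to 2.82% in DMSO.

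The tissue-type activator gene PLAT (chromosome 8, 42175233 to 42207724) had far fewer reads. It had 15.9, 35.4 and 29.2 CPM in TPA libraries 1, 2 and 3, against 17.3, 29.4 and 31.9 CPM in DMSO libraries 1, 2 and 3. The groups overlapped, and the 2 lowest values were those of the libraries numbered 1. The log2 fold change was 0.04 ± 0.37 (edgeR adjusted p = 0.962), with a 95% interval of -0.82 to 0.89 that leaves room for a change of either sign. Its sign turned in several other settings, with -0.37 after a correction for GC content and -0.23 when libraries were scaled by size alone.

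PLAUR, the gene of the urokinase receptor (chromosome 19, 43646095 to 43670547, minus strand), had the largest fold change of the 7 members. It had 249, 324 and 317 CPM in TPA libraries 1, 2 and 3, against 78.9, 36.9 and 35.9 CPM in DMSO libraries 1, 2 and 3. All TPA libraries were above all DMSO libraries, and DMSO 1 was the highest of its group. The means were 296 ± 41.3 CPM in TPA and 50.6 ± 24.5 CPM in DMSO (SD, n = 3 each), and edgeR gave 2.55 ± 0.36 as the log2 fold change (adjusted p = 0.0342). Of the members' transcripts those of PLAUR had the highest GC content, 55.9%, and its log2 fold change was 2.14 (adjusted p = 0.0283) after the GC correction and 2.26 (0.00359) with the replicate block as well. Without TPA 2 the value was 2.50 (adjusted p = 0.0877), without TPA 3 2.52 (0.111), without DMSO 2 2.38 (0.244) and without DMSO 3 2.37 (0.256), again from edgeR.

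SERPINE2, the gene of the inhibitor protease nexin-1 (chromosome 2, 223975112 to 224039319, minus strand), was higher in every TPA library but varied widely among the DMSO libraries. It had 38.5, 28.1 and 31.0 CPM in TPA libraries 1, 2 and 3, against 18.1, 5.86 and 6.55 CPM in DMSO libraries 1, 2 and 3. The groups did not overlap, and DMSO 1 stood well above DMSO 2 and DMSO 3. The log2 fold change was 1.68 ± 0.46, which did not pass (edgeR adjusted p = 0.0939). It passed with the replicate number as a block (1.86 ± 0.29, adjusted p = 0.00491) and without DMSO 1 (2.40, 0.0406). Without TPA 1 it also passed (1.65, 0.0172), beside 24.6% of all genes called higher in that fit.

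Of the plasminogen receptors, ANXA2 (chromosome 15, 60347134 to 60402883, minus strand) was the most abundant and rose. It had 3739, 4819 and 4904 CPM in TPA libraries 1, 2 and 3, against 1465, 1090 and 1020 CPM in DMSO libraries 1, 2 and 3. No TPA library overlapped a DMSO library. The means were 4487 ± 649 CPM in TPA and 1192 ± 239 CPM in DMSO (SD, n = 3 each), and the log2 fold change was 1.91 ± 0.22 (edgeR adjusted p = 0.0250). The gene took 0.357%, 0.429% and 0.443% of all counts in TPA 1, 2 and 3, against 0.158%, 0.118% and 0.113% in DMSO 1, 2 and 3. It stood at rank 7, 6 and 6 by CPM in TPA 1, 2 and 3, and at 26, 45 and 49 in DMSO 1, 2 and 3. Without TPA 2 the edgeR value was 1.88 (adjusted p = 0.0824), without TPA 3 1.86 (0.111), without DMSO 2 1.87 (0.234) and without DMSO 3 1.82 (0.242).

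ANXA2 has processed pseudogenes whose sequence is close to its own. Its level is uncertain because reads that match more than 1 of these copies could be left uncounted or counted for another copy. The pseudogene ANXA2P2 held 3711, 5246 and 5849 counts in TPA 1, 2 and 3, against 1490, 1245 and 1179 in DMSO 1, 2 and 3. That is 3.6% to 3.89% of the ANXA2 count in TPA libraries and 3.35% to 3.77% in DMSO libraries, so its share was much the same in both groups. Its log2 fold change was 2.0 ± 0.24 (edgeR adjusted p = 0.0250). Whether these reads come from ANXA2 or from the pseudogene was not tested. ANXA2P1 held 14 to 41 counts per library, and ANXA2P3 had 0 counts.

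S100A10 encodes the S100 protein that joins annexin A2 in a complex (chromosome 1, 151982915 to 151994390, minus strand), and it did not pass the test. It had 317, 781 and 732 CPM in TPA libraries 1, 2 and 3, against 345, 512 and 493 CPM in DMSO libraries 1, 2 and 3. The groups overlapped, because TPA 1 was the lowest of all 6 libraries while TPA 2 and TPA 3 were the highest. The log2 fold change was 0.44 ± 0.36, with a 95% interval of -0.39 to 1.27 (edgeR adjusted p = 0.501). Without TPA 1 it was 0.86 (adjusted p = 0.00496), and without both libraries numbered 1 it was 0.74, also past the threshold, in a fit that called 32.2% of all genes higher and 33.3% lower. With the block and the GC correction it was 0.07, with an interval of -0.20 to 0.33.

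PLGRKT, the gene of the plasminogen receptor with a terminal lysine (chromosome 9, 5357973 to 5437878, minus strand), showed the smallest difference of the 5 members that did not overlap. It had 170, 131 and 133 CPM in TPA libraries 1, 2 and 3, against 104, 69.4 and 63.0 CPM in DMSO libraries 1, 2 and 3. In both groups library 1 was the highest, and the lowest TPA library was above the highest DMSO library. The means were 144.5 ± 22.0 CPM in TPA and 78.8 ± 21.9 CPM in DMSO (SD, n = 3 each). The log2 fold change of 0.88 ± 0.26 did not pass (edgeR adjusted p = 0.113), but it did with the block (0.90 ± 0.23, adjusted p = 0.0356). Without TPA 1 PLGRKT also passed (0.86, 0.0112), beside 24.6% of all genes called higher in that fit. Its transcripts had the lowest GC content of the members, 44.5%, and with the GC correction its log2 fold change was 1.15 (adjusted p = 0.0239).

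**Figure D2:**
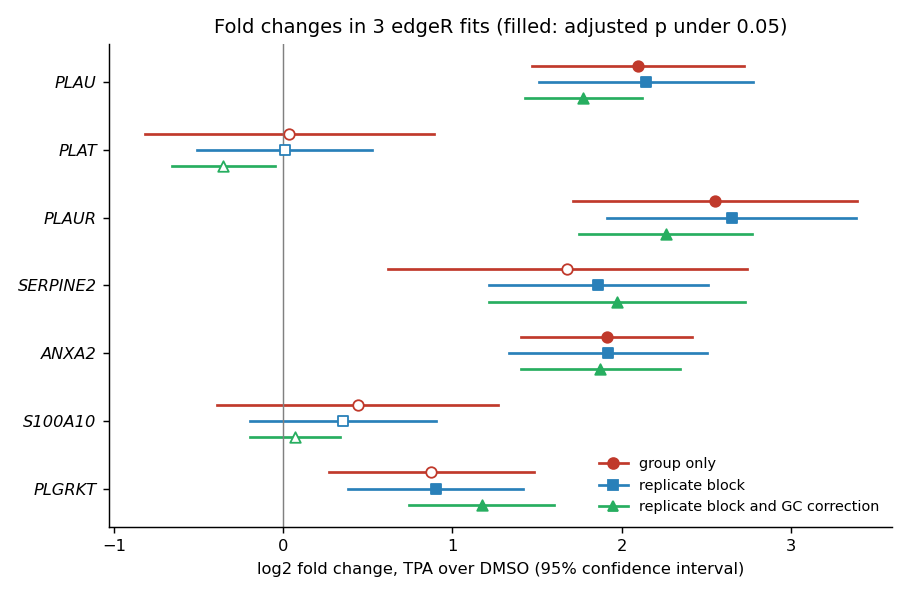
Log2 fold change of each member, TPA over DMSO, with its 95% confidence interval, from edgeR with the group only (circles), with the replicate number as a block (squares) and with the block and a correction for GC content (triangles). Filled symbols have an adjusted p under 0.05. PLAU, PLAUR and ANXA2 are filled in all 3 fits, SERPINE2 and PLGRKT with the block, and PLAT and S100A10 in none.

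Each TPA library was also set against the DMSO library of the same number, and PLAUR had the largest ratio of the members in all 3 numbers, with PLAU next. PLAUR had 3.16-fold more CPM in TPA 1 than in DMSO 1, against 8.77-fold for number 2 and 8.81-fold for number 3. PLAU had 2.70-, 5.87- and 5.41-fold more in TPA for numbers 1, 2 and 3. ANXA2 had 2.55-, 4.42- and 4.81-fold more in TPA for numbers 1, 2 and 3, and SERPINE2 had 2.13-, 4.80- and 4.74-fold more. In each of these 4 genes number 1 had the smallest ratio. PLGRKT differed less between numbers, with 1.64-, 1.88- and 2.11-fold more in TPA. S100A10 was 0.918-fold in number 1 and 1.52- and 1.49-fold in numbers 2 and 3, and PLAT was 0.923-, 1.21- and 0.915-fold. With the replicate block, edgeR called 5 of 7 members higher and 0 lower, beside 4.58% of all genes higher and 6.52% lower, and with the block and the GC correction it also called 5, beside 9.84% and 11.4%. The GC correction alone called 5 members (3.56% of all genes higher and 3.41% lower), DESeq2 called 5 (7.8% and 4.19%) and the fit with no filter called 4 (1.06% and 0.5%). Leaving out TPA 1 gave 6 members higher, beside 24.6% of all genes higher and 27.8% lower, and leaving out DMSO 1 gave 4, beside 0.449% and 0.169%. Without TPA 2, without TPA 3, without DMSO 2 or without DMSO 3, edgeR called 0 of the 7 members, beside 2 to 24 genes higher over all genes without TPA 3 or TPA 2 and 0 genes of either direction without DMSO 2 (2612 at an unadjusted p under 0.05) or DMSO 3 (2745).

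**Figure D3:**
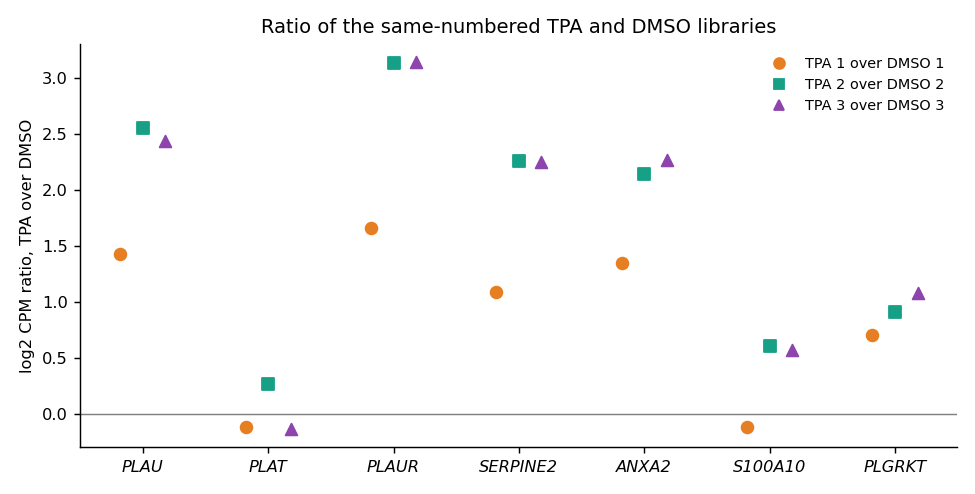
Log2 ratio of CPM in the TPA and DMSO libraries of the same number, for each member. Circles are number 1, squares number 2 and triangles number 3. PLAU, PLAUR, SERPINE2 and ANXA2 lie above 1 in all 3 numbers with number 1 lowest, and S100A10 and PLAT lie near 0 in number 1.

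Levels of different genes were compared per kilobase of the median protein-coding transcript of GENCODE 29. In TPA, ANXA2 was highest at 3108 ± 449 CPM per kilobase, and S100A10 (671 ± 281) and PLAU (622 ± 70.4) followed with overlapping libraries (SD, n = 3). PLAUR (212 ± 29.4) and PLGRKT (155 ± 23.6) came next and overlapped with each other, and SERPINE2 (14.95 ± 2.46) and PLAT (11.8 ± 4.38) were lowest and overlapped. In DMSO the order of mean levels per kilobase was ANXA2 (825.5 ± 166), S100A10 (495 ± 101), PLAU (145 ± 47.8), PLGRKT (84.5 ± 23.5), PLAUR (36.1 ± 17.5), PLAT (11.5 ± 3.45) and SERPINE2 (4.66 ± 3.15), where only PLAT and SERPINE2 overlapped as neighbours. The order depended on the length used. Per kilobase of all annotated exons, which counts rare exons of ANXA2 in full, PLAU (525) and ANXA2 (509) led in TPA and S100A10 (292) and ANXA2 (135) led in DMSO, with PLGRKT above PLAUR and PLAT above SERPINE2 in both groups.

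Ratios of 2 genes within a library need no scaling between libraries, and 4 of them were compared by an exact two-sided permutation test, whose smallest possible p with 3 against 3 libraries is 0.1. The urokinase receptor count per urokinase count was 0.185, 0.195 and 0.193 in TPA libraries 1, 2 and 3, against 0.158, 0.131 and 0.118 in DMSO libraries 1, 2 and 3. The mean log2 ratio was 0.50 ± 0.13 (SE) higher in TPA with no overlap (exact p = 0.1, adjusted p = 0.133 over the 4 ratios), and it varied little among the TPA libraries. The PLAU count per PLAT count was 84.6, 46.8 and 56.2 in TPA 1, 2 and 3, against 28.9, 9.61 and 9.50 in DMSO 1, 2 and 3, a log2 difference of 2.13 ± 0.59 (exact p = 0.1, adjusted p = 0.133). All TPA libraries thus held more urokinase reads per tissue-type activator read than any DMSO library.

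The S100A10 count per ANXA2 count was 0.0847, 0.162 and 0.149 in TPA 1, 2 and 3, against 0.235, 0.470 and 0.483 in DMSO 1, 2 and 3. The groups did not overlap, and the log2 difference was -1.57 ± 0.45 (exact p = 0.1, adjusted p = 0.133). The ratio was lower in TPA in 3 of 3 numbers. The PLAU count per SERPINE2 count was 35.0, 58.9 and 52.9 in TPA 1, 2 and 3, against 27.6, 48.2 and 46.3 in DMSO 1, 2 and 3. These groups overlapped, and the log2 difference of 0.27 ± 0.35 was smaller than its error (exact p = 0.5, adjusted p = 0.5). Within each number, though, the ratio was higher in TPA in 3 of 3 (exact sign-flip p = 0.25, the smallest that 3 pairs allow). These ratios carry no GC correction, under which edgeR's log2 fold change was 1.72 for PLAU and 1.81 for SERPINE2.

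**Figure D4:**
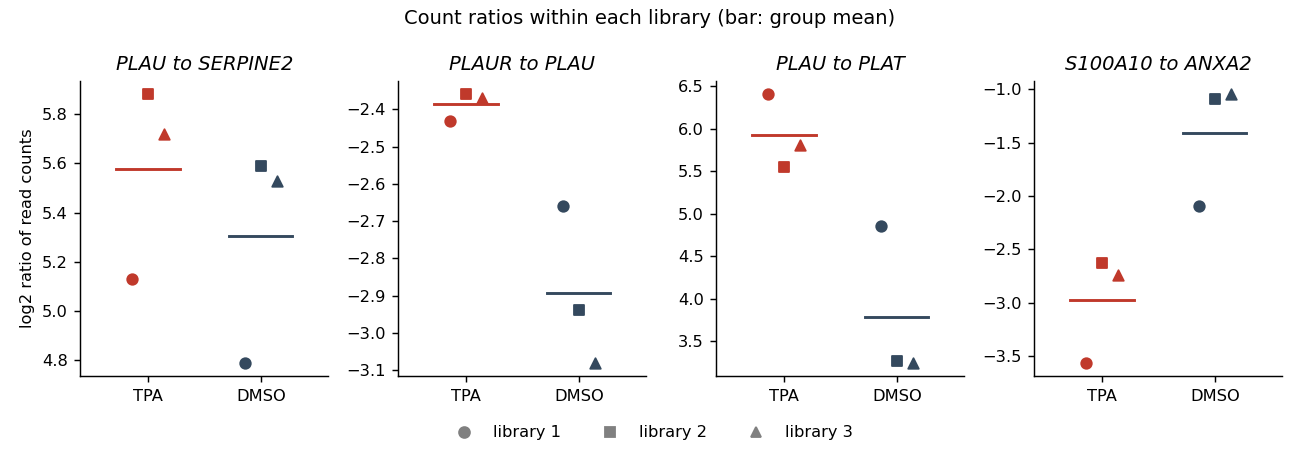
Log2 ratio of the read counts of 2 genes in the same library, TPA left and DMSO right; points are libraries 1, 2 and 3, bars are group means, and axes differ between panels and do not start at 0. PLAUR to PLAU and PLAU to PLAT are higher in all TPA libraries, S100A10 to ANXA2 is lower in all TPA libraries, and PLAU to SERPINE2 overlaps.

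Other genes of the system were taken from 9 lists. Their 92 genes that are not members include 60 that were tested, of which 8 rose, 0 fell and 52 did not pass (edgeR). Over all genes tested 0.861% rose and 0.394% fell. The median log2 fold change of the 60 was 0.47 beside -0.11 for all genes tested. The 8 include the pseudogene ANXA2P2, whose reads may come from the member ANXA2. The plasminogen transcript was not detectable at this depth, as PLG had 0 counts in all 6 libraries, and the fibrinogen genes FGA, FGB and FGG had 0 counts too. Of the contact-phase activator genes F12, which encodes coagulation factor XII, was tested, with 16.5 ± 6.27 CPM in TPA and 10.1 ± 2.09 CPM in DMSO. Its log2 fold change was 0.70 ± 0.35 (edgeR adjusted p = 0.287). Without TPA 1 it was 1.10 (0.00285), in a fit that called 24.6% of all genes higher. The labels name no plasminogen source, and the cells were kept without serum before TPA.

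Of 9 other inhibitor genes 5 were tested, 1 rose and 0 fell. SERPINB2, the gene of plasminogen activator inhibitor type 2, had 622, 189 and 228 CPM in TPA libraries 1, 2 and 3, against 4.58, 1.16 and 1.04 CPM in DMSO libraries 1, 2 and 3 (log2 fold change 7.26 ± 0.87, edgeR adjusted p = 0.0250). In both groups library 1 was the highest, as it was for SERPINE2. SERPINB8, another intracellular-type serpin gene, had on average 49.6 CPM in TPA and 20.3 CPM in DMSO, and its groups overlapped (1.29 ± 0.58, adjusted p = 0.243), but it passed with the block (1.36, 0.00847). SERPINF2, the gene of the plasmin inhibitor alpha-2-antiplasmin, had 4.19 ± 1.46 CPM in TPA and 3.28 ± 0.423 CPM in DMSO (0.35 ± 0.32, adjusted p = 0.554). The list's median was 0.35, and with the block and the GC correction it was -0.06. Without TPA 1 the value of SERPINB2 was 6.64 and without DMSO 1 it was 8.30.

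Of 7 genes listed under other plasminogen-binding proteins 4 were tested and 0 passed in edgeR, with a median log2 fold change of 0.08. That median includes AHNAK, which is described here as a binder of the annexin A2 complex and not of plasminogen. KRT8, a keratin reported as a plasminogen binder at the cell surface, had 1000, 2790 and 2640 CPM in TPA libraries 1, 2 and 3, against 774, 741 and 882 CPM in DMSO libraries 1, 2 and 3 (1.42 ± 0.37, adjusted p = 0.0881). Its groups did not overlap, and it passed with the block (1.3, 0.0275). ENO1, the gene of the glycolytic enzyme enolase 1, which also binds plasminogen through a terminal lysine, differed by 0.65 ± 0.32 on the log2 scale (adjusted p = 0.282). AHNAK, whose product binds the annexin A2 complex, had -0.52 ± 0.29 (0.337), and HMGB1, a chromatin protein that binds plasminogen outside the cell, had -0.49 ± 0.23 (0.256). These 3 did not pass with the block either, while without TPA 1 all 4 genes passed (adjusted p of 0.000377 to 0.0263) in a fit that called 52.5% of all genes. With the block and the GC correction HMGB1 turned to 0.08 (0.706).

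Among 16 genes of endocytic receptors and partners of the urokinase receptor 12 were tested, 1 rose and 0 fell, with a median of 0.24. ITGA5, the fibronectin receptor chain that works with uPAR in adhesion, had 180, 244 and 240 CPM in TPA libraries 1, 2 and 3, against 66.2, 52.9 and 56.1 CPM in DMSO libraries 1, 2 and 3 (1.92 ± 0.22, adjusted p = 0.0250, edgeR). LRP1, the endocytic receptor that clears urokinase bound to its inhibitors, had 81.6, 200 and 190 CPM in TPA against 137, 223 and 213 CPM in DMSO (-0.28 ± 0.37, adjusted p = 0.684), but -0.73 with the block and the GC correction (0.00689). That fit called 2 genes of the list higher and 2 lower, beside 9.84% of all genes higher and 11.4% lower. ITGA5 (1.53, 0.00154) and the receptor gene VLDLR (0.6, 0.0388) were the 2 higher, and LRP1 and VTN (-0.98, 0.0383) the 2 lower. With the group only, LRPAP1, the chaperone of LRP1, had 0.48 ± 0.35 (0.459), and EGFR, a receptor that uPAR can signal through, had 0.50 ± 0.37 (0.460). In the same fit the integrin chain genes ITGB1 (-0.66 ± 0.28, 0.217) and ITGAV (-0.48 ± 0.31, 0.405) had negative values. ITGB5 (0.46 ± 0.37, 0.493) and ITGA3 (0.14 ± 0.32, 0.822) had positive values, and none of these other integrin genes passed.

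Of 20 genes of plasmin or urokinase substrates 14 were tested, 5 rose and 0 fell, with a median log2 fold change of 0.70 and of 0.33 with the block and the GC correction. The block called 7 higher and 2 lower, beside 4.58% of all genes higher and 6.52% lower. LAMB3, the gene of a chain of the basement membrane protein laminin-332, had 3920, 3700 and 3830 CPM in TPA libraries 1, 2 and 3, against 789, 451 and 487 CPM in DMSO libraries 1, 2 and 3 (2.73 ± 0.26, adjusted p = 0.0202, edgeR). The groups were far apart, with DMSO 1 the highest of its group. FN1, the fibronectin gene (2.1 ± 0.28, 0.0302), MMP9 and MMP1, both proenzymes that plasmin can activate, also rose. MMP9 had 185 counts over the TPA libraries and 2 over the DMSO libraries, so that its CPM was 98.6 times higher, with a 95% interval for counting error of 26.9 to 821. MMP1 had 25.6 ± 8.68 CPM in TPA and 5.15 ± 1.6 CPM in DMSO (2.31 ± 0.36, 0.0402). With the block, LAMA3 (1.63, 0.00889) and TGFB1 (1.21, 0.0143), the gene of a growth factor whose latent form plasmin can release, were also higher, and F2R, the thrombin receptor gene (-1.46, 0.00763), and PDGFC (-0.84, 0.0415), the gene of a growth factor that tissue-type activator cleaves, were lower. With the GC correction added PDGFC no longer passed (-0.33, 0.262). Each call outside the block that is named here from these other lists was lost without TPA 3, without DMSO 2 and without DMSO 3, with adjusted p of 0.0559 to 0.276, and those of ITGA5, FN1, MMP1 and ANXA2P2 also without TPA 2 (0.0824 to 0.0877), and those of FN1 (0.0543) and MMP1 (0.0713) also without DMSO 1.

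**Figure D5:**
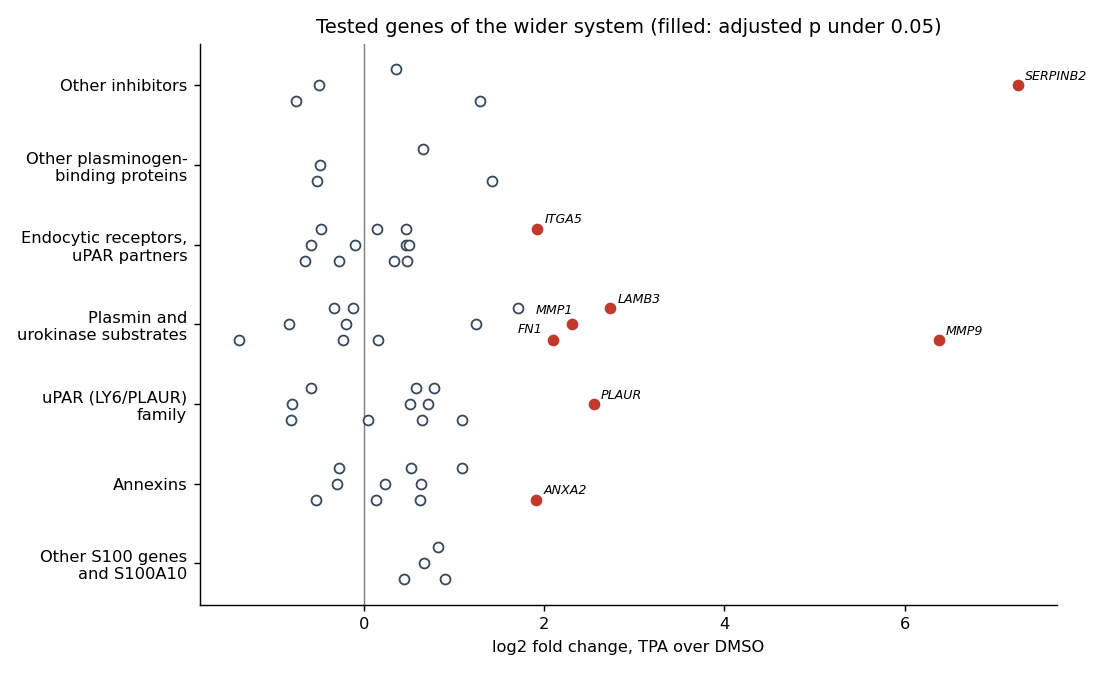
Log2 fold change, TPA over DMSO, of the tested genes in 7 of the lists, 1 point a gene, with 1 substrate gene left out; filled points have an adjusted p under 0.05 in edgeR and are named. The fitted value of MMP9 rests on 2 counts in DMSO and depends on the prior count. All filled points lie to the right of 0, and the open points lie between -1.39 and 1.71.

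Relatives of the members were followed in the same way. Of 17 genes of the family that shares the fold of uPAR, 11 were tested and PLAUR was the 1 that rose. Its relatives LYPD3 (0.64 ± 0.55, adjusted p = 0.518), LYPD5 (0.77 ± 0.32, 0.211) and CD177 (1.09 ± 0.37, 0.150) did not pass, nor did LYPD1 (-0.80 ± 0.27, 0.144) and PSCA (-0.81 ± 0.41, 0.301), whose values were negative. The list's median was 0.57. With the block and the GC correction 2 genes of the list were higher and 3 lower, beside 9.84% of all genes higher and 11.4% lower. The 3 were LYPD1 (-1.19, 0.0117), PSCA (-1.18, 0.0304) and LY6E (-0.39, 0.0303). Of 13 annexin genes 10 were tested and ANXA2 was the 1 that rose, with a median of 0.38. ANXA5, a calcium-dependent phospholipid-binding annexin, had 409, 388 and 398 CPM in TPA libraries 1, 2 and 3, against 229, 171 and 162 CPM in DMSO libraries 1, 2 and 3 (1.09 ± 0.21, adjusted p = 0.0581, edgeR), and it passed with the block (1.10, 0.0187). ANXA1, the annexin known for its anti-inflammatory action, had 341 ± 101 CPM in TPA and 420 ± 85.2 CPM in DMSO (-0.30 ± 0.27, 0.543), and it turned to 0.27 (0.297) with the block and the GC correction. That fit called 4 annexin genes higher and 1 lower, beside 9.84% of all genes higher and 11.4% lower. The 4 were ANXA2 (1.87, 0.00469), ANXA5 (1.25, 0.00788), ANXA7 (0.88, 0.0246) and ANXA3 (0.36, 0.0462), and the 1 lower was ANXA9 (-0.77, 0.0179). Whether ANXA2 differs in response from each of these was not tested. Of 7 S100 genes 4 were tested, including S100A10, and 0 passed (median 0.74). S100A11 (0.82 ± 0.28, 0.150), S100A13 (0.90 ± 0.26, 0.105) and S100A16 (0.66 ± 0.27, 0.216) had higher log2 fold changes than S100A10, S100A13 passed with the block (0.88, 0.0415), and all 4 passed without TPA 1 (adjusted p of 0.000443 to 0.00496), where 52.5% of all genes were called.

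Genes with the most similar pattern were sought by Pearson's r of log2 CPM over the 6 libraries, among 10161 tested genes with an average log2 CPM of at least 3. Pseudogenes and genes with a clone or locus name were left out of this search. High values were common over these 6 libraries, and 725 genes exceeded 0.95 with PLAU, 704 with PLAUR, 830 with ANXA2, 1025 with S100A10, 305 with SERPINE2, 317 with PLAT and 267 with PLGRKT. PLAU was closest to LINC02693 (r = 0.9994), ANKLE2 (0.9993) and the death receptor gene TNFRSF10B (0.9994), which had 273, 310 and 298 CPM in TPA 1, 2 and 3 and 172, 132 and 138 CPM in DMSO 1, 2 and 3. PLAUR was closest to C2CD2L (0.9996), RRBP1 (0.9993) and MGLL (0.9995), the monoacylglycerol lipase gene. MGLL had 217, 238 and 241 CPM in TPA and 110, 69.7 and 70.2 CPM in DMSO. ANXA2 was closest to the adaptor gene TICAM1 (0.9991), ZFAND3 (0.9990) and DAP3 (0.9990). SERPINE2 was closest to the deubiquitinase gene USP36 (0.9974), ALOXE3 (0.9973) and PRSS16 (0.9968). PLAT was closest to the channel gene TPCN1 (0.9959), PIDD1 (0.9959) and LIMK2 (0.9937), and PLGRKT to the signal recognition particle gene SRP68 (0.9986), SLC15A4 (0.9978) and MIR22HG (0.9975). S100A10 was closest to the receptor gene ERBB3 (0.9994) and to BRD3 (0.9992). ERBB3 shared with S100A10 the low library TPA 1, at 61.7, 157 and 152 CPM in TPA and 67.0, 104 and 98.3 CPM in DMSO.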

How the data were processed

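RNA sequencing of total RNA gave 6 libraries, 3 of TPA and 3 of DMSO. Reads per gene were deposited as raw counts, with genes by symbol in rows and libraries in columns, and the control columns were taken as the DMSO samples by group and number. Per the submitters' processing notes, HISAT2 2.1.0 and HTSeq 0.12.4 were used, and hg38 and GRCh38 are the builds listed. Sources used here do not give the annotation release or the strand setting. Of the columns 0 fell outside the labels and 0 rows named no gene.

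The 2 groups were compared with edgeR 4.0.16 in R 4.3.3 (quasi-likelihood test, filterByExpr and TMM factors, no term besides the group), and p-values were adjusted by Benjamini-Hochberg over 21825 genes, with a threshold of 0.05. CPM values are the counts divided by TMM-scaled library sizes. Standard errors were taken from the estimate and the F statistic. Intervals of log2 fold changes come from edgeR and hold the spread between libraries. Floors (3 counts) and the exact binomial interval of the MMP9 ratio cover counting error only. Ratios of genes were compared by exact permutation (scipy 1.17.1). Steps were tested on simulated counts.

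Alternatives were library size only, RLE factors, upper-quartile factors, a fit without the filter, a stricter filter (1 CPM or more throughout either group), DESeq2 1.42.0, limma-voom (limma 3.58.1), the replicate block, a GC correction (a robust spline with 5 degrees of freedom per library, fitted to genes above an average log2 CPM of 2, as an offset) with and without the block, each library left out, and both libraries numbered 1 left out. A length from all exons was added after seeing the data. Libraries of one number were treated as pairs in the block because same-numbered deviations from the group means correlated at 0.546, 0.345 and 0.369, but TPA 2 with DMSO 3 (0.374) and TPA 3 with DMSO 2 (0.356) were as high. GC content, lengths and positions came from GENCODE 29 on GRCh38, where 4066 of 60591 symbols matched none or more than 1 gene.

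The members, lists and tests were chosen with earlier results of these data known. Named were all members, the list genes that passed (where none or over 4 passed, those 4 with the lowest p) and, per member, the 3 nearest genes. Some genes that the rule names are counted but not reported here. Other list genes were chosen after their values were seen.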

Additional observations from a re-analysis of the deposited data

How the results depend on the processing

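The calls of PLAU, PLAUR and ANXA2 and their direction held in all 11 alternatives that kept every library or left out both libraries numbered 1, with log2 fold changes of 1.72 to 2.65, 2.14 to 3.29 and 1.66 to 2.36. With 1 library left out, PLAU ran from 1.96 to 2.41, PLAUR from 2.37 to 3.03, ANXA2 from 1.82 to 2.14, SERPINE2 from 1.41 to 2.40, S100A10 from 0.24 to 0.86, PLGRKT from 0.75 to 1.13 and PLAT from -0.19 to 0.41. SERPINE2 passed with no filter (1.77), DESeq2 (1.77), the replicate block (1.86), the GC correction (1.81), both together (1.98) and without both libraries numbered 1 (2.41). PLGRKT passed with DESeq2 (0.97), the block (0.90), the GC correction (1.15), both (1.17) and without both libraries numbered 1 (1.15), and S100A10 without both libraries numbered 1 (0.74). PLAT was -0.23 by library size only, -0.05 with the stricter filter, -0.37 with the GC correction, -0.35 with the block and the GC correction, -0.19 without TPA 2, -0.01 without TPA 3 and -0.19 without DMSO 1, and the cause was not tested. The replicate block changed no other call of a member.

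Over all genes, 188 were higher and 86 lower. The counts were 429 and 202 with no filter, 1702 and 915 with DESeq2, 1000 and 1423 with the block, 749 and 717 with the GC correction, 2068 and 2403 with both, and 7216 and 7475 without both libraries numbered 1. With 1 library left out they ran from 0 to 5577 and from 0 to 6297. Library size only gave 126 and 219 and limma-voom 247 and 130. Over all genes the median log2 value was -0.11, and it was -0.36 with library size only and -0.01 with RLE factors. With 1 library left out, the log2 differences of the ratios ran from 0.01 to 0.50 (PLAU to SERPINE2), 0.41 to 0.62 (PLAUR to PLAU), 1.86 to 2.66 (PLAU to PLAT) and -1.91 to -1.28 (S100A10 to ANXA2), and their sign held in these, in the replicate block, with 1 added to each count and without both libraries numbered 1. The GC correction was not run on them. With 3 libraries a group, a gene that did not pass the test may still differ by any amount within the interval given for it.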
